A study of Mus musculus with 7 samples.

Results

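The cornified envelope genes were examined across the keratinocytes of transplanted mouse epidermis. They were chosen by name: every gene whose symbol begins with Lce or Sprr, together with 15 genes named singly, among them Lor, Ivl, Flg, Krtdap, Dmkn, Sbsn, Tgm1, Tgm3 and Casp14. Of 26383 genes in the keratinocyte table, 51 were members, and 1 further gene of the rule, Calm4, was not in that table. The rule uses names and no measured value, but it was set with earlier results of these data known.

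The cells were CD45neg keratinocytes of male CD45.2 C57BL/6 hosts, sorted from the epidermis 3 weeks after the hosts had been lethally irradiated and given bone marrow of female CD45.1 C57BL/6 donors. There was 1 library labelled BMT (bone marrow transplant), with 2836 cells, and 1 library whose label adds T cells (BMT + T cells), with 2590 cells. The design text of the series gives CD4 T cells and CD8 Matahari (Mh) T cells to the hosts without setting any apart, and a legend of the study describes the keratinocytes as coming from pooled mice given T cells, so the comparison below is between the labels. CD11b+MHCII+ myeloid cells of the epidermis, of donor origin in 4 libraries and of host origin in 1, served as cells that should lack these transcripts. Of the donor libraries, 1 is labelled BMT + T cells. The other donor libraries and the host library are labelled BMT. With 1 keratinocyte library per label there was no replicate and no test. Every interval is an exact 95% interval for counting error only, and a difference beyond it is a difference between 2 libraries. In a sum over cells, fewer cells of a kind and less RNA per cell cannot be told apart.

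The cornified envelope is the insoluble protein shell that replaces the plasma membrane of keratinocytes as they leave the granular layer and die. Its precursors, loricrin, involucrin and the small proline-rich (SPRR) and late cornified envelope (LCE) proteins, are cross-linked by transglutaminases, and most of them are encoded side by side in the epidermal differentiation complex. Basal keratinocytes carry keratins 5 and 14, suprabasal keratinocytes switch to keratins 1 and 10, and the precursors are classically late genes that appear above that switch.

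The label of the group was only in part borne out by these cells. The transcripts that were abundant were those of secreted suprabasal proteins, while the defining genes of the cornified layer were close to 0. Krtdap, which encodes a small secreted peptide of the suprabasal layers, held 186968 of the 296146 unique molecular identifiers (UMIs, 1 per captured transcript) of all members, and Dmkn (dermokine, another secreted suprabasal protein) held 80482. With Sbsn (suprabasin), these neighbouring genes gave 91.8% of the UMIs. Lor had 583 UMIs in 5426 cells, Flg, which encodes filaggrin, had 6, Flg2 had 11 and Hrnr had 1. The 21 Lce genes had 153 UMIs between them, of which Lce6a and Lce1a1 held 94 and 25, and 8 Lce genes had none. Tgm1, the membrane-bound transglutaminase of the envelope, had 5 UMIs against 7226 for Tgm3.

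Of the 51 members, 12 had no UMI at all, 22 had between 1 and 19, and 17 had at least 20 UMIs over both libraries. The other values below concern those 17. UMIs mark the 5′ end of a transcript in this kit and were not divided by length.

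**Figure D1:**
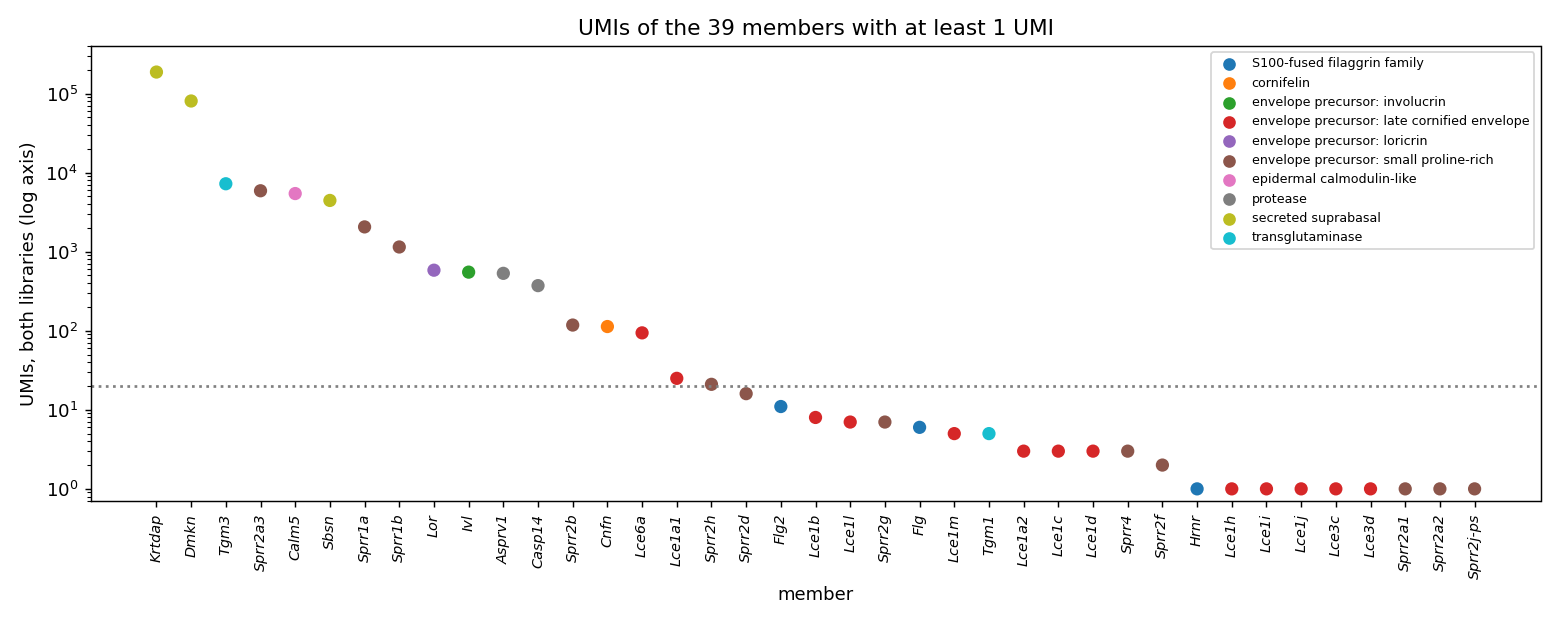
UMIs of each member summed over both keratinocyte libraries (log axis), coloured by role, for the 39 members with at least 1 UMI. The dotted line marks 20 UMIs. Krtdap and Dmkn stand far above the next member, Tgm3, with 186968 and 80482 UMIs against 7226, and the filaggrin family and nearly all late cornified envelope genes lie below the line.

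The genome holds the members in a few groups. On the GRCm38 build, 42 of the 51 lie within 1253.3 kb of chromosome 3 (chr3:92080271-93333572, from Lor to Hrnr), which is the epidermal differentiation complex. Those 42 genes gave 10570 UMIs, 3.57% of the total. Sbsn, Dmkn and Krtdap follow each other within 58.4 kb of chromosome 7 (chr7:30732674-30791089), and all 3 were highest in the same cluster, as described next.

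The authors divided the cells into 5 clusters, named Basal, Differentiated, Follicular, KC_Four and KC_Five. Krt5 and Krt14 summed to 575 and 556 UMIs per 10000 in the Basal cluster of the BMT and BMT + T cells libraries, and Krt1 and Krt10 to 174 and 169 in the Differentiated cluster. Krt79 and Krt17, which mark the upper hair follicle, summed to 52.1 and 52.0 in the Follicular cluster. KC_Four and KC_Five had high levels of both basal keratins and of the cycling genes Mki67, Top2a and Cdc20, which summed to 17.8 and 19.05 in KC_Four and 13.9 and 15.2 in KC_Five against 1.54 and 1.14 in the Basal cluster. Lor and Sprr2a3, the marker genes given for the cornified layer, were not highest in the Differentiated cluster, as their levels below show. Since the clusters were made from these same values, differences between clusters are given as a description.

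The Differentiated cluster held 15.6% of the cells and 52.2% of the member UMIs (52.0 to 52.3%). All members together made up 1.76% of its UMIs in the BMT library and 1.62% in the BMT + T cells library, against 0.302% and 0.291% in the Basal cluster. Of the 17 members with at least 20 UMIs, however, only 7 had their highest level there: Krtdap, Dmkn, Sbsn, Calm5, Casp14, Sprr1b and Sprr2h. Sprr1a, Ivl, Asprv1 and Cnfn were highest in the Follicular cluster, Tgm3 and Lce6a in the Basal cluster, and Lor, Sprr2a3, Sprr2b and Lce1a1 in KC_Four or KC_Five. This ranking is over the sums of both libraries, and 4 of these members ranked differently in each: Sprr2a3 was highest in KC_Four in the BMT library and in Basal cells in the other, Sprr2b in KC_Four and in Differentiated cells, Sprr1b in Differentiated and in Basal cells, and Lor in KC_Four and in KC_Five. Some of these ranks rest on few cells. In Differentiated cells 1 cell held 115 of 244 Sprr1b UMIs in the BMT library, and 1 held 80 of 142 in the other. A Differentiated cell of the BMT library held 8 of the 21 Sprr2h UMIs. In Follicular cells 1 cell held 26 of 48 Cnfn UMIs in the BMT library, and 1 held 10 of 17 in the other. Without the top cell of each cluster, 6 of 15 members were highest in the Differentiated cluster. Within the BMT library, 8 of 14 members with enough UMIs were over 2-fold higher in the Differentiated than in the Basal cluster and 0 over 2-fold lower, where 5.52% of all genes compared were over 2-fold higher and 13.2% lower. In the BMT + T cells library it was 7 of 15 higher, against 4.73% of all genes, and 1 lower, Lce6a, against 12.6%.

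The secreted suprabasal proteins had the steepest pattern. Krtdap stood at 134 UMIs per 10000 (133 to 135) in Differentiated cells of the BMT library and 126 (124 to 127) in those of the BMT + T cells library. It stood at 12.3 and 12.8 in Basal cells and at 38.1 and 35.2 in Follicular cells. After each cell was thinned to 2500 UMIs, 97.6% and 97.5% of Differentiated cells still had a Krtdap UMI, and so did 52.1% and 48.5% of Basal cells, against at most 3.09% of the cells of a donor myeloid library. UMIs of the gene were thus found in both clusters and differed in level. The part of free RNA from Differentiated cells in the Basal values was not tested, and the myeloid libraries cannot show it. Sbsn was more restricted, at 3.38 and 3.12 UMIs per 10000 in Differentiated cells, 2.08 and 1.72 in Follicular cells and 0.129 and 0.179 in Basal cells, a ratio of Differentiated to Basal of 26.2 in the BMT library and 17.4 in the other. Dmkn was the least restricted of the 3, at 32.5 and 28.4 in Differentiated and 13.1 and 12.4 in Basal cells, and was lowest in Follicular cells, at 8.0 and 6.26.

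Calm5, which encodes a calmodulin-like calcium-binding protein of the epidermis, was 3.50-fold and 3.08-fold higher in Differentiated than in Basal cells in the 2 libraries. Casp14, the caspase that processes filaggrin, stood at 0.207 (0.17 to 0.25) and 0.277 (0.226 to 0.336) UMIs per 10000 in Differentiated cells and between 0.0284 and 0.0531 in the 4 other clusters. Asprv1, the retroviral-like protease that also acts on filaggrin, was highest in Follicular cells, at 1.19 in the BMT library and 0.168 in the BMT + T cells library, but 1 cell held 213 of the 302 UMIs behind the higher value.

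Tgm3, a transglutaminase that cross-links envelope precursors, ran the other way. It was highest in Basal cells, at 1.84 (1.78 to 1.92) and 1.57 (1.51 to 1.63) UMIs per 10000, lower in Differentiated cells, at 1.10 (1.02 to 1.20) and 0.858 (0.767 to 0.957), and lowest in Follicular cells, at 0.130 and 0.270. The log2 ratio of KC_Five over Basal cells for Tgm3 was -0.22 (-0.41 to -0.03) in the BMT library. In the BMT + T cells library it was -0.22 (-0.45 to 0.0006), which included 0. Among the other transglutaminases, Tgm5 had 126 and 110 UMIs, of which 102 and 97 were in Follicular cells, and Tgm2 had none.

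Loricrin is the main protein of the mature envelope. Lor stood at 0.113 (0.0863 to 0.146) and 0.144 (0.108 to 0.188) UMIs per 10000 in Differentiated cells, at 0.0808 and 0.0697 in Basal cells, and higher in KC_Four, at 0.231 (0.184 to 0.287) and 0.227 (0.172 to 0.295). KC_Five, at 0.188 and 0.289, did not differ from KC_Four beyond counting error. No keratinocyte had more than 14 Lor UMIs. Ivl, which encodes involucrin, an early scaffold of the envelope, was highest in Follicular cells, at 0.364 (0.293 to 0.446) and 0.323 (0.253 to 0.406), against 0.126 and 0.0773 in Differentiated and 0.0882 and 0.0710 in Basal cells. The log2 ratio of Differentiated over Basal cells for Ivl was 0.52 (0.07 to 0.95) in the BMT library and 0.12 (-0.52 to 0.72) in the other, where it included 0.

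The SPRR genes encode short proline-rich bridges between other precursors, and each had a pattern of its own. Sprr1a was a gene of few cells: in the Follicular cluster of the BMT library it stood at 5.0 UMIs per 10000, yet 27 of 278 cells held all its 1264 UMIs and the top 10 of them held 90.9%. In the BMT + T cells library 25 of 259 Follicular cells held 330 UMIs, and the top 10 held 89.7%. Cells with Sprr1a often had Ivl as well. In the Follicular cluster 17 of the 27 cells with Sprr1a in the BMT library had an Ivl UMI (63.0%), against 5.18% of the cells without, and in the BMT + T cells library it was 15 of 25 (60.0%) against 5.98%. Cells with Sprr1a were deeper, with a median of 10011 UMIs against 7856 in the BMT library and 8454 against 7710 in the other, and the part of depth in this co-detection was not tested. Sprr1b was rarer still, with UMIs in 79 keratinocytes of both libraries.

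Sprr2a3 was the most abundant SPRR gene and was not a gene of the Differentiated cluster. In the BMT library it stood at 2.93 UMIs per 10000 (2.76 to 3.12) in KC_Four, 2.58 (2.34 to 2.84) in KC_Five, 1.91 (1.84 to 1.98) in Basal and 1.52 (1.42 to 1.63) in Differentiated cells. In the BMT + T cells library the order was another, with 0.411 (0.380 to 0.445) in Basal, 0.301 (0.248 to 0.362) in Differentiated, 0.141 (0.0834 to 0.222) in KC_Five and 0.102 (0.0657 to 0.150) in KC_Four cells. The log2 ratio of KC_Four over Basal was 0.62 (0.51 to 0.72) in the first library and -2.02 (-2.66 to -1.44) in the second. Follicular cells had 12 UMIs in the BMT library and 1 in the other, and 0.360% (0.00911 to 1.99%) and 0.386% (0.00977 to 2.13%) of them had a UMI after thinning, which is 1 cell in each library. The share in the sorted host myeloid cells was 0.522% (0.108 to 1.52%), at median depths of 8070 and 7913 against 4376 UMIs. The intervals overlap, so the Follicular level could not be told from that of the host cells, whose library itself holds a cluster with keratinocyte keratins. Sprr2b, its neighbour, had 118 UMIs and was found with it: in Basal cells of the BMT library 42 of the 45 cells with Sprr2b also had Sprr2a3. The counts of this family are uncertain. In the GENCODE vM39 transcripts, 73.4% of the 31-base words of Sprr2a3 also occur in another member, nearly all of them in Sprr2a1 or Sprr2a2, and 30.1% of those of Sprr2b do. Sprr2a1 and Sprr2a2 were given 1 UMI each, so reads of these near-identical genes may have been assigned to Sprr2a3.

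**Figure D2:**
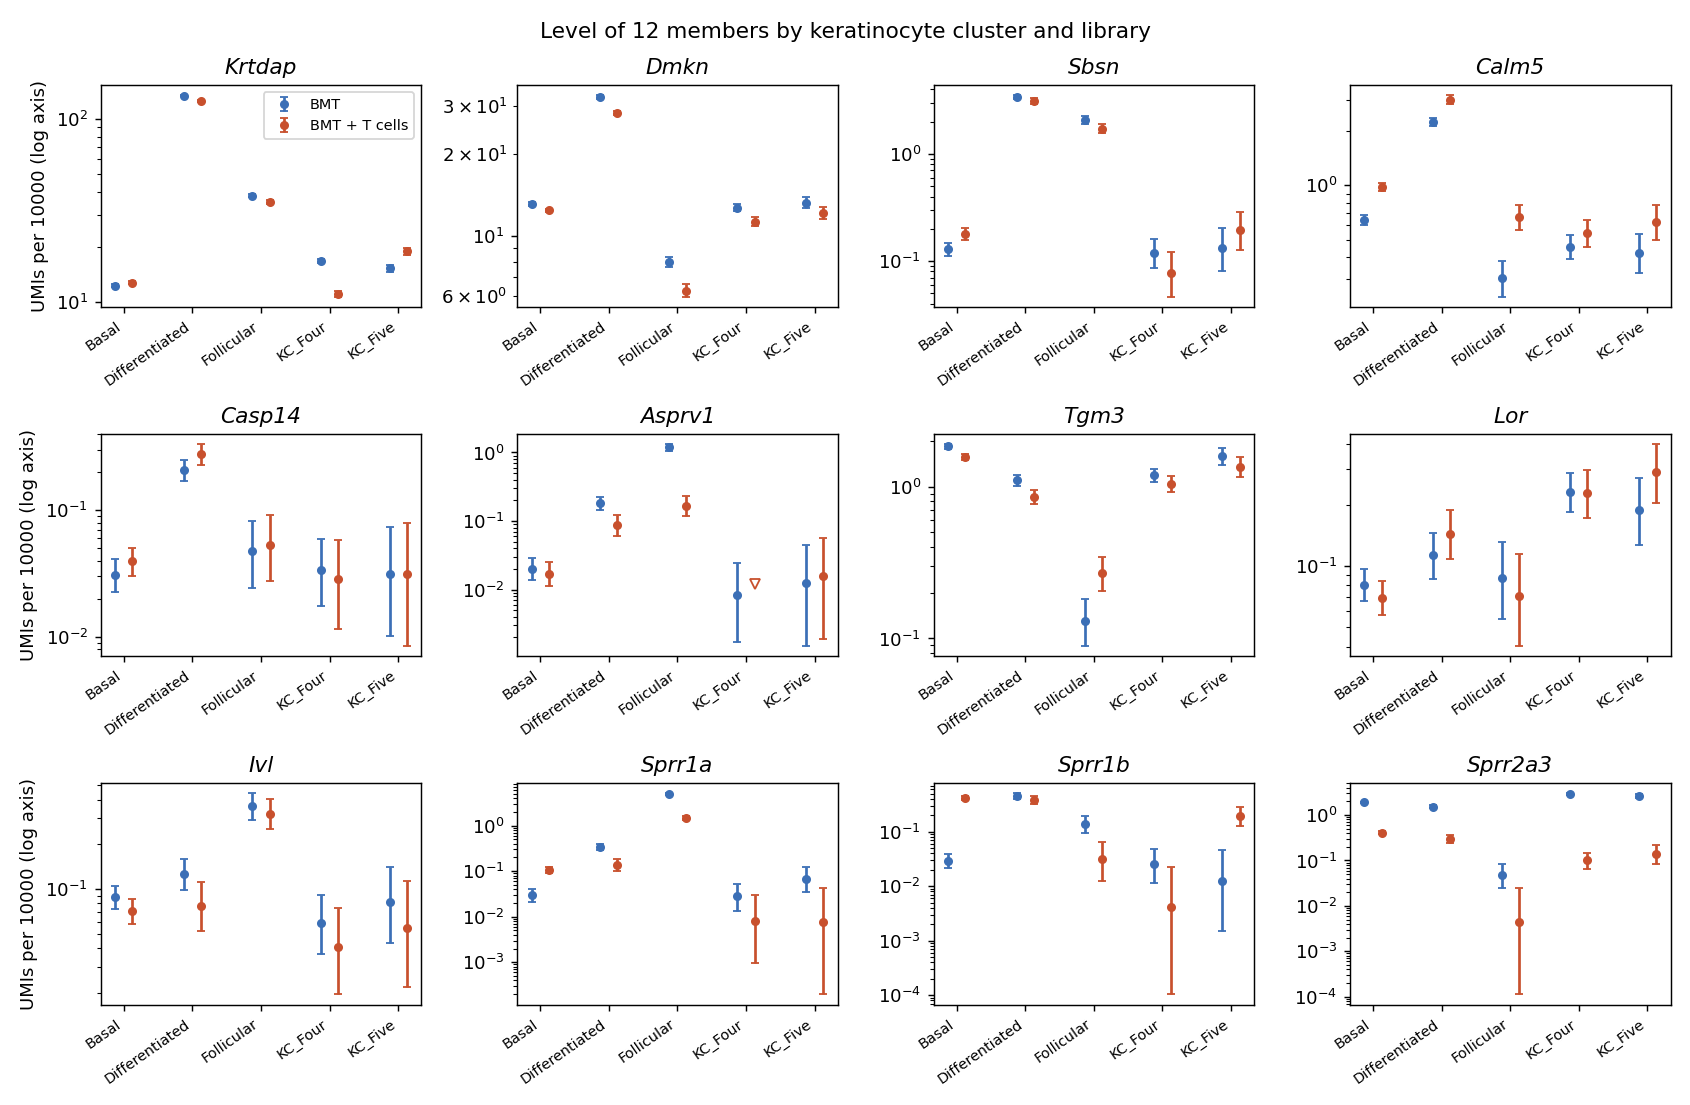
Level of 12 members in UMIs per 10000 (log axis) in each of the 5 keratinocyte clusters, for the BMT (blue) and BMT + T cells (red) libraries. Points are sums over the cells of a cluster, bars are exact 95% Poisson intervals and the open triangle marks the level that 3 UMIs would give where there were none. Krtdap, Dmkn, Sbsn, Calm5 and Casp14 peak in the Differentiated cluster in both libraries, Ivl and Sprr1a in the Follicular cluster, and Sprr2a3 is lower in the BMT + T cells library in every cluster.

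The stretches upstream of the start sites of 4 members with different patterns are shown because the members fall into those with and those without the same short motifs there. Each is the 250 bases before the RefSeq start on GRCm38.p6, 5′ to 3′ on the strand of the gene, and capitals mark matches to TGANTCA, the AP-1 motif of Jun and Fos proteins, and TATAAA, the core of the TATA box. Krtdap (chr7:30787655-30787904, plus strand) was the Differentiated gene, Sprr1a (chr3:92485882-92486131, minus strand) the gene of few Follicular cells, and Sprr2b (chr3:92316455-92316704, plus strand) and Sprr2a3 (chr3:92285054-92285303, plus strand) the genes lower in the BMT + T cells library.
Krtdap: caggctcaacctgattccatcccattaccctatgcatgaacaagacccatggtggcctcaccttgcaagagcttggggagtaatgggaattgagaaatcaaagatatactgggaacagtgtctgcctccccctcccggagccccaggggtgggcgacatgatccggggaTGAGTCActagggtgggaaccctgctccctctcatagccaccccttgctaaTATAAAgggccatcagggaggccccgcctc
Sprr1a: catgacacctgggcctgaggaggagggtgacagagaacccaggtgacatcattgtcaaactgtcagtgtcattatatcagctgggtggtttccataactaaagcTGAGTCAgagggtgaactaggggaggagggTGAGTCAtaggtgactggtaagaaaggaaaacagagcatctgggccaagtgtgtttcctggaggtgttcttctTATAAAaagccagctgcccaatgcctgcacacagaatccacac
Sprr2b: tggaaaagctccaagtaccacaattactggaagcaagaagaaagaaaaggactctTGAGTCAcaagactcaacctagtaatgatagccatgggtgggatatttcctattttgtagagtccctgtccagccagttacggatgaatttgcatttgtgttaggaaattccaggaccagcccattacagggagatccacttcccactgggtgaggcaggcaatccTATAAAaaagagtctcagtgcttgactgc
Sprr2a3: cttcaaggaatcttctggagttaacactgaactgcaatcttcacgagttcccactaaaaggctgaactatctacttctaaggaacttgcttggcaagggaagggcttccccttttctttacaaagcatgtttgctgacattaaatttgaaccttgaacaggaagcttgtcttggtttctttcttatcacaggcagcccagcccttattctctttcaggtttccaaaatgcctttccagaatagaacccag
Krtdap has an AP-1 match whose leading base lies 81 bases before the start and a TATA core 30 bases before it, Sprr1a has 2 AP-1 matches, at 146 and 116 bases, and a TATA core at 43, and Sprr2b has them at 195 and 29. Sprr2a3 has neither in this window, which at 222 overlapping bases is identical to those of Sprr2a1 and Sprr2a2.

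RefSeq gave 51 such windows for 48 of the members. An AP-1 match lay in 18 of the 51 (35.3%), against 6.75% of all 32851 mouse windows, and a TATA core in 20 (39.2%) against 12.4%. Both strands were searched, and the AP-1 motif reads the same on both. AP-1 matches were in 9 of the 14 Sprr windows and in 0 of the 20 Lce windows. The windows are not independent, since Dmkn has several, all with the match, and the Sprr genes are a family of related genes. Among members with at least 20 UMIs, 9 of 17 had the match, including Krtdap, Dmkn, Sbsn, Lor, Ivl, Sprr1a and Sprr1b, and Tgm3, Calm5, Casp14 and Sprr2a3 did not. Of the 31 other members with a window, 7 had it. Among interferon-related motifs, TTCNNNGAA (GAS) lay in 3 of the 51 windows, that of Sprr2a3 among them, against 7.02% of all windows, and the ISRE core, a pair of GAAA words with 2 bases between them, in 1, against 2.98%. CCGGAA (ETS core) lay in 0, against 12.03%. A match is a run of letters, and nothing was measured on binding.

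The order in which members appear was followed along differentiation. Basal and Differentiated cells were ranked by the ratio of Krt1 and Krt10 to Krt5 and Krt14 and divided into 5 bins of equal size over both libraries, in which the share of cells named Differentiated went from 0.226% and 0% in bin 1 to 92.9% and 80.8% in bin 5 (BMT and BMT + T cells). Krt10 itself went from 0.558 to 166 UMIs per 10000 in the BMT library. Krtdap increased at every step in both libraries, from 7.47 to 140 and from 7.80 to 123, an increase of 18.8-fold (18.1 to 19.5) and 15.7-fold (15.1 to 16.3). Most of it lay between bins 4 and 5, where it went from 27.02 to 140 and from 25.04 to 123.

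Sbsn, Calm5 and Casp14 also ended highest. Sbsn was flat at 0.109 to 0.149 over bins 1 to 3 and then reached 3.54 and 2.91, which is 31.6-fold (23.4 to 43.6) and 22.7-fold (17 to 31) the level of bin 1. Calm5 increased at every step, by 5.39-fold (4.58 to 6.37) and 5.54-fold (4.77 to 6.46) in all, and Dmkn at every step too, but by 2.65-fold and 2.34-fold. Casp14 ended 10.7-fold (5.23 to 25.4) and 8.61-fold (4.6 to 17.8) higher. Lor moved little, by 2.02-fold (1.20 to 3.52) and 1.71-fold (1.01 to 2.95).

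Tgm3 and Sprr2a3 ended lower than they began. Tgm3 held between 1.62 and 1.99 over bins 1 to 3 and ended at 1.06 and 0.835, 0.549-fold (0.490 to 0.615) and 0.516-fold (0.450 to 0.592) of bin 1. Sprr2a3 was highest in bin 1, at 2.40 in the BMT and 0.549 in the BMT + T cells library, and lowest in bin 5, at 1.23 and 0.185. The members were thus spread over both ends of the ranking.

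**Figure D3:**
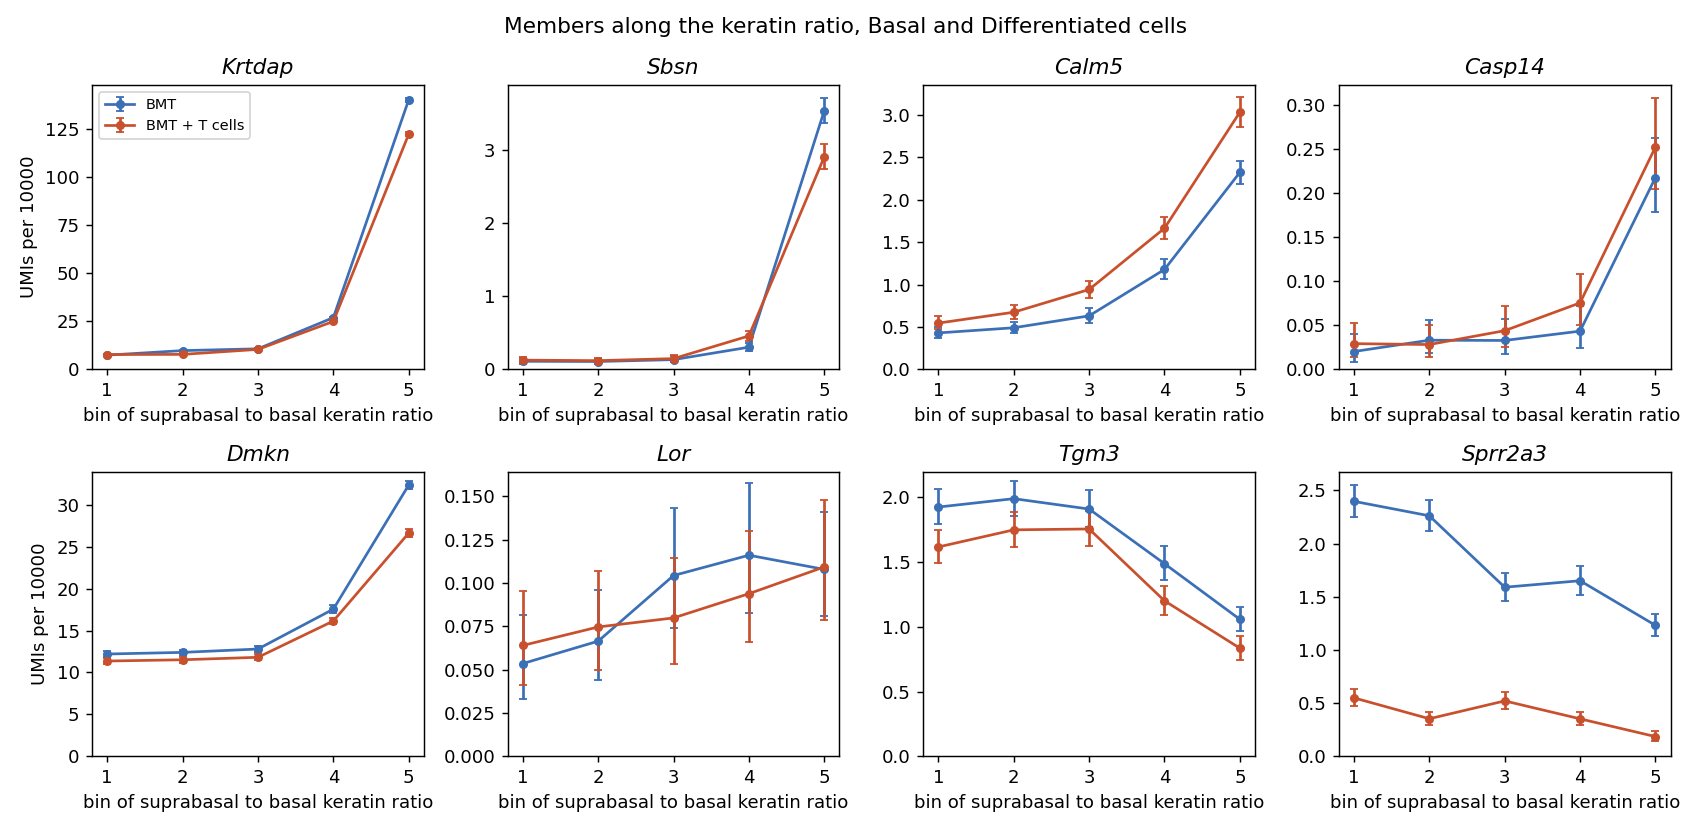
Level in UMIs per 10000 of 8 members in 5 equal bins of Basal and Differentiated cells ranked from a low to a high ratio of suprabasal to basal keratins, by library, with exact 95% Poisson intervals. Krtdap, Sbsn, Casp14, Calm5 and Dmkn are highest in bin 5, Tgm3 and Sprr2a3 are lowest there, and the Sprr2a3 line of the BMT + T cells library lies below that of the BMT library in all 5 bins.

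The libraries were then compared within each cluster. Depth was alike, with median UMIs per cell of 8896 and 8834. The sum of all members in the Differentiated cluster was 162 UMIs per 10000 with T cells on the label against 176 without, a log2 ratio of -0.12 (-0.13 to -0.11). The log2 ratio was -0.06 (-0.07 to -0.04) in Basal, -0.26 (-0.30 to -0.23) in Follicular and -0.50 (-0.55 to -0.46) in KC_Four cells, and in KC_Five the interval of 0.01 (-0.05 to 0.07) included 0. Over all keratinocytes it was 50.5 against 61.2, a log2 ratio of -0.28 (-0.29 to -0.27), while the share of cells in the Differentiated cluster was 13.6% (12.3 to 15.0%) against 17.4% (16.0 to 18.8%). The sum is mostly Krtdap and Dmkn, which had log2 ratios of -0.10 (-0.11 to -0.08) and -0.20 (-0.23 to -0.16) in Differentiated cells.

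In the Differentiated cluster, 4 of the 13 members with at least 20 UMIs were over 2-fold lower in the BMT + T cells library, against 1.18% of the 9783 genes compared, and 0 were over 2-fold higher, against 1.27%. The 4 were Sprr2a3, Sprr1a, Sprr2b and Asprv1. The median log2 ratio of the 13 members was -0.28, against 0.02 over all genes. The remaining 9 members lay within 2-fold, among them Lor at 0.35 (-0.21 to 0.90), Sbsn at -0.12 (-0.22 to -0.01), Casp14 at 0.42 (0.02 to 0.82), Tgm3 at -0.36 (-0.56 to -0.16) and Ivl at -0.71 (-1.39 to -0.06).

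Sprr2a3 differed most of the 13 members of the Differentiated cluster. Its level in Differentiated cells was 1.52 UMIs per 10000 (808 UMIs) in the BMT library and 0.301 (113 UMIs) in the other, a log2 ratio of -2.34 (-2.64 to -2.05). In Basal cells it was 1.91 (2839 UMIs) against 0.411 (625 UMIs), a log2 ratio of -2.22 (-2.35 to -2.09). In KC_Four it was 2.93 against 0.102 and in KC_Five 2.58 against 0.141, log2 ratios of -4.85 (-5.49 to -4.28) and -4.20 (-4.97 to -3.52). Fewer cells had the transcript: after thinning, 13.9% (12.3 to 15.6%) of Basal cells in the BMT library and 2.57% (1.87 to 3.44%) in the BMT + T cells library, and 20.4% (15.4 to 26.3%) against 1.33% (0.162 to 4.73%) of KC_Four cells. The difference remained without the richest cells. Without the cell with the most Sprr2a3 UMIs in each library, the log2 ratio was -2.17 in Differentiated, -2.44 in Basal, -4.92 in KC_Four and -5.63 in KC_Five cells.

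Sprr2b, which may share reads with Sprr2a3, had 50 UMIs in Basal cells of the BMT library and 18 in those of the other, a log2 ratio of -1.51 (-2.37 to -0.71). In Differentiated cells it had 20 and 6, and the interval of its ratio of -1.24 (-2.84 to 0.13) included 0. Asprv1 had 96 and 33 UMIs in Differentiated cells, 0.181 and 0.0879 per 10000, a log2 ratio of -1.04 (-1.66 to -0.46).

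Calm5 differed in the other direction, by less than 2-fold in Differentiated and Basal cells and by over 2-fold in Follicular cells. It stood at 2.25 (2.13 to 2.39) and 3.00 (2.83 to 3.18) UMIs per 10000 in Differentiated cells of the BMT and BMT + T cells libraries, at 0.644 (0.604 to 0.686) and 0.976 (0.927 to 1.03) in Basal cells and at 0.304 and 0.663 in Follicular cells. The log2 ratios were 0.41 (0.29 to 0.53), 0.60 (0.48 to 0.72) and 1.12 (0.72 to 1.54), and in KC_Four the interval of 0.25 (-0.09 to 0.59) included 0. In each of the 5 keratin-ratio bins the BMT + T cells level was the higher, from 0.546 against 0.430 in bin 1 to 3.03 against 2.32 in bin 5. Calm5 shares 16.8% of its 31-base words with Calm4, the paralogue that the table does not list.

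In the Basal cluster 3 of 15 members were over 2-fold higher in the BMT + T cells library, against 1.77% of all genes compared, and 2 were over 2-fold lower, against 0.804%. The lower members were Sprr2a3 and Sprr2b. The higher ones were Sprr1b, with 44 and 637 UMIs, Sprr1a, with 44 and 164, and Cnfn (cornifelin, an envelope protein), with 1 and 28, and 1 cell held most of the UMIs of all 3. That cell, in the BMT + T cells library, was 44307 UMIs deep where the median Basal cell had 8224, and held 561 UMIs of Sprr1b, 145 of Sprr1a and 23 of Cnfn. It also held 1759 UMIs of Krt16, 721 of Krt6a, 645 of S100a8 and 576 of S100a9, which are keratins and alarmins of stressed epidermis, beside 1698 of Krt14 and 1 of Krt10. Without the top cell of each library the log2 ratio of Sprr1a went from 1.86 (1.38 to 2.38) to -0.48, and that of Sprr1b from 3.82 (3.38 to 4.30) to 3.05, on 9 and 76 UMIs. Cnfn was left with 0 and 5 UMIs, too few to compare. Whether that cell held more than 1 cell was not tested.

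**Figure D4:**
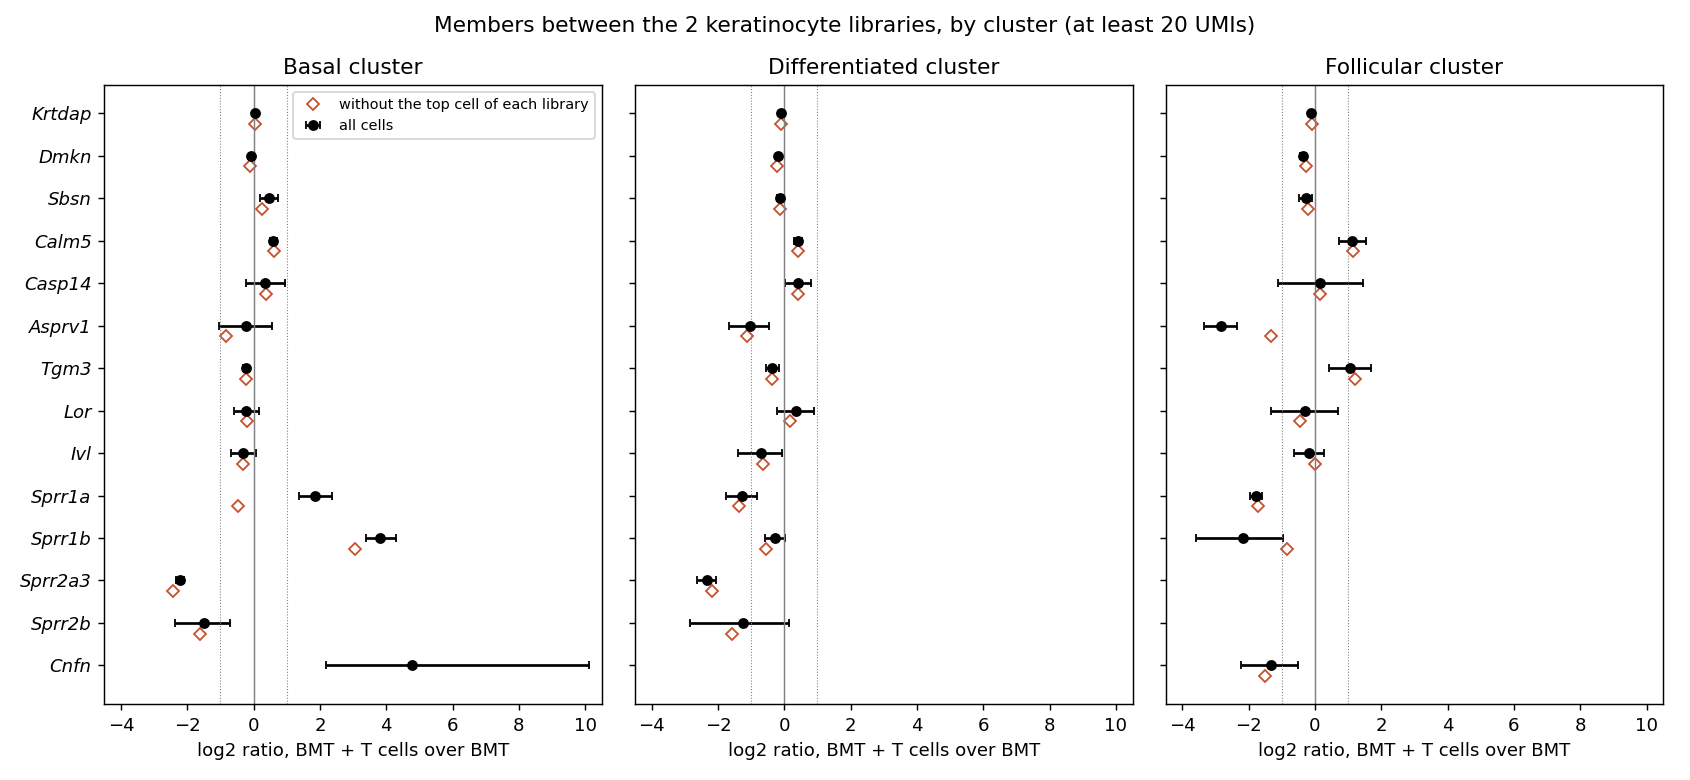
Log2 ratio of the BMT + T cells over the BMT library for 14 members, where they had at least 20 UMIs, in the Basal, Differentiated and Follicular clusters (Lce6a is not drawn). Filled points are sums over all cells with exact 95% intervals for counting error, open diamonds leave out the cell with the most UMIs of the gene in each library, and dotted lines mark 2-fold. Sprr2a3 keeps its place without that cell, while Sprr1a in Basal cells crosses from 1.86 to -0.48 and Asprv1 in Follicular cells goes from -2.83 to -1.32.

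In the Follicular cluster 4 of 12 members were over 2-fold lower in the BMT + T cells library, against 1.73% of all genes, and 2 were over 2-fold higher, against 1.64%. The lower members were Sprr1a, Sprr1b, Asprv1 and Cnfn, and the higher ones Calm5 and Tgm3, which had 77 and 150 and 33 and 61 UMIs. Sprr1a had 1264 and 330 UMIs, a log2 ratio of -1.78 (-1.95 to -1.60), and -1.71 without the top cells. The number of cells with Sprr1a hardly differed, 27 of 278 against 25 of 259, so the difference lay in how many UMIs those cells held. Asprv1 went from -2.83 (-3.36 to -2.34) to -1.32 without the top cells, and Sprr1b, on 35 and 7 UMIs, from -2.16 (-3.58 to -0.97) to -0.83. The same cell of the BMT library, 13508 UMIs deep, held the most Sprr1a (375 UMIs), Sprr1b (31) and Asprv1 (213), together with 487 UMIs of Krt16. The cluster also had fibroblast transcripts (Col1a1, Col1a2 and Dcn summed to 2.70 and 3.02 UMIs per 10000) and melanocyte transcripts (4 genes, 0.877 and 1.23), whose part in these values was not tested.

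In KC_Four, Sprr2a3 was the 1 of 8 members over 2-fold lower, against 1.31% of all genes, and 0 were over 2-fold higher, against 1.36%. In KC_Five, Sprr2a3 was the 1 of 9 lower, against 1.28%, and Sprr1b the 1 higher, against 1.72%, with 2 and 25 UMIs of which 1 cell held 23. Over all keratinocytes, 5 of 17 members were over 2-fold lower, against 1.27% of all genes. They were Sprr2a3, Asprv1, Sprr2b, Sprr1a and Lce1a1, the last with 18 and 7 UMIs and a ratio of -1.21 (-2.71 to 0.12) whose interval included 0. Sprr1b was the 1 higher, against 1.65%, at 1.44 (1.25 to 1.63), and at 0.36 without its top cells. The cells behind these sums can be seen one by one for Sprr2a3, Sprr1a and Sprr1b.

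**Figure D5:**
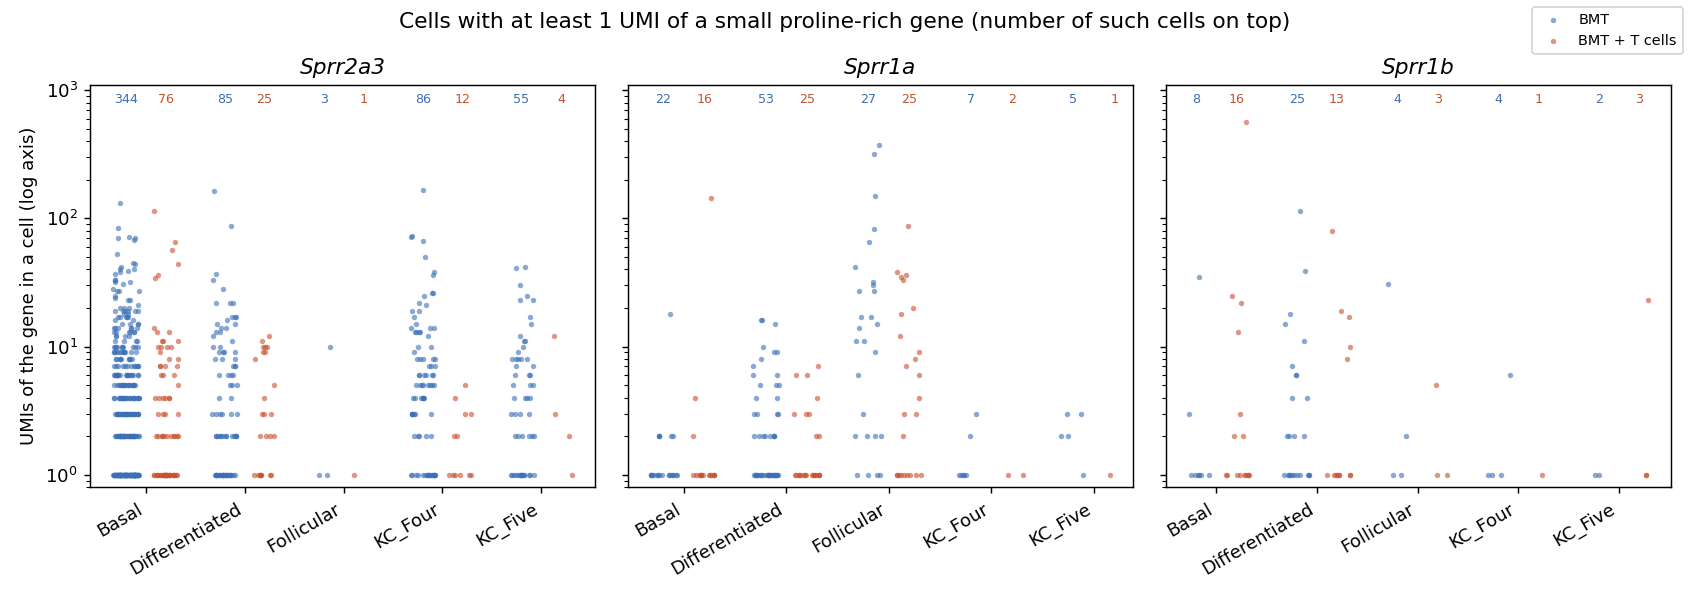
UMIs of Sprr2a3, Sprr1a and Sprr1b in each cell that had at least 1 (log axis), by cluster and library. The numbers on top count those cells: 344 Basal cells had Sprr2a3 in the BMT library (blue) and 76 in the BMT + T cells library (red), and the Sprr1a and Sprr1b totals of the Basal cluster come mostly from the topmost red point.

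Partner genes of the envelope were compared in the same way. Of 7 desmosome and plakin genes (Dsg1a, Dsc1, Cdsn, Ppl, Evpl, Perp and Pkp1), which anchor the envelope to its neighbours, 6 had enough UMIs in Differentiated cells and 0 passed 2-fold, with a median log2 ratio of -0.03. Of all genes compared there, 1.27% were over 2-fold higher and 1.18% lower, so a count of 0 lies near that share. Ppl (periplakin) stood at 2.02 and 1.90 UMIs per 10000 and Evpl (envoplakin) at 1.30 and 1.32. Cdsn, the corneodesmosome protein, was the 1 of 7 over 2-fold lower in Follicular cells, against 1.73% of all genes compared, with 58 and 20 UMIs.

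Of 10 proteases and protease inhibitors of shedding, 2 of the 7 compared in Follicular cells were over 2-fold lower, against 1.73% of all genes compared. They were Klk7 (308 and 89 UMIs) and Klk5 (92 and 24), both kallikreins that cut corneodesmosomes. In Basal cells 2 of 8 were over 2-fold higher, against 1.77% of all genes compared, the cystatins Csta1 (125 and 295 UMIs) and Stfa1 (442 and 975). These Basal sums include the deep cell that held most of the Sprr1b UMIs, and its part in them was not computed. Cst6, the cystatin M/E that restrains transglutaminase activation, stood at 71.6 and 42.5 UMIs per 10000 in Follicular cells, a log2 ratio of -0.75 (-0.79 to -0.72). In the BMT + T cells library 1 Follicular cell, 8947 UMIs deep, held 3029 UMIs of Cst6 and 29 of the 89 of Klk7. The ratios without that cell were not computed.

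The 20 transcription factors listed as regulators of these genes were compared too. Of 18 compared in Differentiated cells, 17 in Basal and 17 in Follicular cells, 0 passed 2-fold in either direction, and the medians of the log2 ratio were 0.02, 0.14 and -0.02. Between 0.804% and 1.77% of all genes compared passed 2-fold in a given direction in these clusters, so counts of 0 lie near that share. Klf4, a factor needed for the barrier, stood at 8.05 and 9.29 UMIs per 10000 in Differentiated cells, Gata3 at 4.01 and 4.19 and Junb, an AP-1 subunit, at 2.61 and 3.20, while Prdm1 and Fosl1 had none.

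Of the 6 stress keratins and alarmins, 5 were over 2-fold higher in Basal cells of the BMT + T cells library, against the 1.77% of all genes compared. The deep cell that carried most of Sprr1b held 529 of the 581 UMIs of Krt6b there, 1759 of 3233 of Krt16, 721 of 2935 of Krt6a, 645 of 1925 of S100a8 and 576 of 1756 of S100a9. Without that 1 cell, a setting chosen after seeing the data, 4 of the 6 were over 2-fold higher, with log2 ratios of 2.00 (1.86 to 2.14) for Krt6a, 1.09 (0.36 to 1.85) for Krt6b, 1.11 (0.98 to 1.25) for Krt16 and 2.03 (1.85 to 2.23) for S100a9, and S100a8 was at 0.57 (0.44 to 0.70). Krt17 went the other way, at -0.50 (-0.64 to -0.37). With all cells, Krt6a stood at 0.365 and 1.93 UMIs per 10000 and Krt16 at 0.450 and 2.13. The other clusters did not share the Basal pattern. In Follicular cells 0 of 6 were over 2-fold higher, against 1.64% of all genes compared, and 2 lower, against 1.73%. In Differentiated cells it was 0 of 6 higher, against 1.27%, and 1 lower, against 1.18%. In KC_Four 1 of 4 was higher, against 1.36%, and 1 lower, against 1.31%, and in KC_Five 0 of 3 higher, against 1.72%, and 2 lower, against 1.28%. In Follicular cells Krt16 stood at 4.8 and 0.0929 and Krt6b had 143 UMIs against 1. In the BMT library 1 Follicular cell held 487 UMIs of Krt16, and the Krt16 level without it was not computed. The suprabasal keratins Krt1 and Krt10 differed little in Differentiated cells, at 19.5 and 26.5 and at 154 and 143.

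Of the 10 genes listed for the interferon-gamma response, 8 could be compared over all keratinocytes. In the BMT + T cells library 7 were over 2-fold higher, against 1.65% of all genes compared, and 0 over 2-fold lower, against 1.27%. The median log2 ratio was 1.90. H2-Ab1 stood at 0.0834 and 0.661 UMIs per 10000. Cd74, which is also made by myeloid cells, stood at 0.296 and 1.91 and made up nearly all of the 5 myeloid markers, whose sum was 0.299 and 1.92. The other 4 were near 0, with 0 and 3 UMIs of Ptprc, 3 and 1 of Cd207, 3 and 15 of Lyz2 and 2 and 2 of Csf1r in the BMT and BMT + T cells libraries. Of the T cell markers, Cd8a had no UMI, Cd3e had 4 and 2 and Trbc2 had 1212 and 882. The part of interferon-responding or other cells in the members' values was not tested.

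The genes whose pattern over the 10 combinations of cluster and library was most like that of the summed members, among 7653 genes with at least 500 UMIs, were Acer1 (Pearson r = 0.988), Prdx5 (0.987), Ankrd35 (0.987), 4833423E24Rik (0.986) and Elovl4 (0.982). Acer1 encodes an alkaline ceramidase and Elovl4 an elongase of very long fatty acids. Elovl4 stood at 4.25 and 3.43 UMIs per 10000 in Differentiated and 0.0889 and 0.121 in Basal cells. The 10 points share 2 libraries and 5 clusters made from these genes, and the sum is mostly Krtdap.

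Between single Differentiated cells the members were only loosely tied. The highest rank correlation among the named members was that of Krtdap and Sbsn, with a Spearman coefficient of 0.57 over 493 cells of the BMT library and 0.57 over 353 of the other. Krtdap and Dmkn, neighbours on chromosome 7, gave 0.39 and 0.33, and Krtdap and Krt10 gave 0.55 and 0.40. Sprr2a3 correlated weakly and negatively with Krtdap, at -0.17 and -0.10, which in sparse counts is no finding. All values were divided by the depth of the cell, which they share.

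The members were also counted in the sorted myeloid libraries, where the source of their UMIs was not tested. Those libraries are separate sorts, so they do not measure free RNA within the keratinocyte libraries. In the 4 donor libraries, where only 7 members were listed, Krtdap stood between 0.0308 and 0.131 UMIs per 10000 and Dmkn between 0.0462 and 0.392, against 12.3 and 13.1 in Basal cells of the BMT library. After thinning, between 0.688% and 3.09% of donor cells had Krtdap. The thinning left out 248 of 2572, 1164 of 8382, 41 of 226 and 108 of 719 donor cells and 206 of 781 host cells that were shallower than 2500 UMIs.

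The host library was different. Its cluster numbered 5, with 43 cells, had Krt14 at 205 and Krt5 at 133 UMIs per 10000, Dmkn at 9.94 and Krtdap at 6.90, so it carried a keratinocyte profile. Lor lay elsewhere in that library: of its 145 UMIs, 81 came from cluster 2, of which 1 cell held 42, and 50 from cluster 4, of which 1 cell held 48. Over the host library Lor stood at 0.282 UMIs per 10000, above the 0.113 and 0.108 of the keratinocyte libraries, and the number of Lor UMIs per 100 of Krtdap was 12.7, against 0.0844 and 0.115 in Differentiated keratinocytes. Flg had 48 UMIs in 781 host cells and 6 in 5426 keratinocytes. Of the host Flg UMIs, 23 were in cluster 1, 12 in cluster 3, 8 in cluster 4 and 4 in cluster 5. Host cluster 1 also had 51 UMIs of Sbsn against 5 of Krtdap. The most Lor UMIs in a cell were 48 in the host library and 14 among keratinocytes. The 2 keratinocyte libraries shared 2 cell barcodes.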

How the data were processed

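Keratinocytes, donor and host myeloid cells were sequenced with a 10x Genomics 5′ kit. Per the labels, the authors used kallisto, bustools and Seurat with GRCm38. By the study's methods they removed cells with few genes or high mitochondrial content and likely doublets (DoubletFinder). The deposited expression values are natural logs of 1 plus UMIs per 10000 UMIs of the cell. The deposited mitochondrial column is in percent. After undoing the log, 100% of 15311900 keratinocyte, 28329689 donor and 1755429 host values were whole UMIs within a tolerance of 0.001. Of the keratinocytes, 0 had under 500 genes and 1 had over 20% mitochondrial UMIs. All cells were kept, doublets were not called again, and the authors' clusters were used as deposited. The donor table lists 15155 genes and holds a median of 91.3% of each cell's UMIs.

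UMIs were summed per cluster and library and divided by the summed depth (27817737 UMIs for BMT and 24959785 for BMT + T cells). Levels have exact Poisson, shares Clopper-Pearson and ratios conditional binomial intervals at 95%. A member was counted as over 2-fold with at least 20 UMIs over both libraries, after adding 0.5 UMIs to each sum. Shares of cells with a UMI were compared after thinning each cell to 2500 UMIs. Members with at least 500 UMIs (11) are given in full and the others by ranges or where a count is small. Chosen after values were seen were Casp14, Sprr2b, Cnfn, Lce6a, Calm4 and the partner genes named from the lists. The genes most like the summed members were found on log2(UMIs per 10000 + 0.1). RefSeq positions and upstream windows are those of GRCm38.p6 (all 52 symbols matched), and shared 31-base words were counted in GENCODE vM39 transcripts, without coordinates. The members and gene lists were chosen with earlier results of these data known. Alternatives were means over cells, means of the deposited log values, thinned cells, a cell filter, other minimums, folds and added counts, depth without the members, keratin-ratio bins and leaving out the top cells. The call rule and intervals were tested on simulated Poisson sums of the Differentiated cluster, with genes of higher counts changed by known folds. Such sums have no clumping of UMIs in single cells. The test therefore does not cover members whose UMIs lie in few cells, or calls near 20 UMIs. Computations ran in Python 3.11.15 with pandas 2.3.3, SciPy 1.17.1 and NumPy 2.4.6, and plots were drawn with matplotlib 3.10.9.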

Additional observations from a re-analysis of the deposited data

Results flagged for a closer look

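A few members differed between the libraries in opposite directions in different clusters, each with 1 library per label, so the difference between clusters was not tested. The log2 ratio of BMT + T cells over BMT of Sprr1b was 3.82 in the Basal and 3.96 in the KC_Five cluster and -2.16 in the Follicular cluster. That of Sprr1a was 1.86 in the Basal, -1.28 in the Differentiated and -1.78 in the Follicular cluster, and that of Cnfn was 4.77 in the Basal and -1.34 in the Follicular cluster. The Basal values of Sprr1a and Cnfn rest on 1 deep cell. That of Sprr1b was 3.05 without the top cell of each library, on 9 and 76 UMIs, and it too rests on few cells. In the BMT + T cells library 16 of 1712 Basal cells had Sprr1b, and the top 10 held 99.1% of its 637 UMIs. The KC_Five value of Sprr1b rests on 1 cell with 23 of its 25 UMIs.

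Calm4, the member that the keratinocyte table does not list, had 1212 UMIs in the host library, and 1069 of them were in the 43 cells of its cluster 5, where it stood at 7.17 UMIs per 10000 and Calm5 at 0.0671. These values lie in a library that the comparisons do not use.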

How the results depend on the processing

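The summed members of the Differentiated cluster had a log2 ratio of -0.12, and of -0.10 as a mean over cells, -0.077 in thinned cells, -0.089 as a mean over keratin-ratio bins and -0.21 without Krtdap and Dmkn, all of 1 sign. Over all keratinocytes it was -0.28, and -0.19 as the mean of the 5 cluster ratios, -0.26 over cells and -0.49 without Krtdap and Dmkn. The count of members over 2-fold lower in the Differentiated cluster was 4 of 13. It was 2 of 11 in thinned cells and 12 of 27 with at least 1 UMI, when 3 were higher. On the mean of the deposited log values it was 0. That scale could hardly give a count, since Sprr2a3, the member that differed most, had a UMI in only 17.2% and 7.08% of Differentiated cells (BMT and BMT + T cells). The setting without the top cells and the other additions were chosen after seeing the data; it left 1 member over 2-fold higher in the Basal cluster instead of 3. The Differentiated cluster held 52.2% of member UMIs, and 50.04% after thinning, 55.0% in the BMT and 48.4% in the BMT + T cells library alone. Of 77 settings of the 11 named members, 74 kept the sign and 66 stayed within the counting interval. Of those that moved further, Sprr1b went to 0.75 in the keratin-ratio bins and Ivl to 0.23 in thinned cells. As differences of the mean deposited log values, which is another scale, Sprr2a3 went from -2.33 to -0.27, Sprr1a from -1.27 to -0.067, Asprv1 from -1.03 to -0.070 and Lor from 0.35 to -0.0073. A member with a UMI in few cells has a small mean log value, so these differences cannot be set beside the log2 ratios. The causes of the other moves were not tested. No paired analysis was possible because the 2 libraries share no replicate number and no test was made. At this depth, 0 UMIs of a member in a library allow up to 3.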
